A study of Mus musculus with 18 samples.

Results

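The cells described here are Kaede red CD45+ leukocytes from arthritic mice, divided by where they were found after the inflamed joint had been photoconverted. Joint nonmigrated cells were still in the ankle joint, and joint migrated cells had reached the draining popliteal lymph node (pLN). The comparison takes in 3 pools of each kind, which are 6 of the 18 libraries of the series, and every gene in the count table. Each pool came from several mice that were described as matched males and females, so a replicate is a pool and not an animal.

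All 6 pools came from Kaede mice, which carry a transgene for a green fluorescent protein that violet light turns red. Red is thus meant to mark cells that were in the exposed paw. The study also saw slightly more red cells in draining nodes shortly after exposure than in unexposed controls. How many of the red node cells had been converted within the node was not tested here. The recipients had been given OVA-specific Th1 cells, polarised in culture from OT-II CD45.1 donors, followed by immunisation with OVA in complete Freund's adjuvant. The footpad was challenged 10 days after immunisation with 100 µg of heat-aggregated OVA (HAO). Both groups therefore shared strain, immunisation, challenge and sort, and differed in the tissue where the red cells were found after photoconversion. The mice were 6 to 10 weeks old. Viable single CD45+ red cells were sorted after collagenase digestion, and joint tissue was in addition mechanically homogenised, whereas nodes were pressed through mesh. The tissue of recovery and this difference in handling cannot be told apart.

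An inflamed joint fills with neutrophils and monocytes from blood, beside the macrophages that live in the synovium, and smaller numbers of lymphocytes and dendritic cells. Cells leave such a tissue through lymphatic vessels, and dendritic cells and T cells are the best known of those that travel this way, although neutrophils and monocytes can also be found in lymph. Dendritic cells that mature on leaving a tissue turn up Fscn1, the chemokine Ccl22 and the homing receptor Ccr7. RNA from a sorted mixture reflects both which cells are present and what each transcribes, and in these bulk pools fewer cells of a type and less RNA per cell cannot be told apart.

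Assigned counts per library ran from 35554698 to 41853129 in nonmigrated pools and from 40280509 to 43814403 in migrated pools, and 3 counts in a library corresponded to 0.0586 to 0.0948 CPM (counts per 1000000, with library sizes normalised by the trimmed mean of M values). Mitochondrial transcripts held 1.83% to 2.05% of nonmigrated and 1.41% to 1.96% of migrated counts. The first principal component of the 6 libraries, which separated the groups, held 90.31% of the variance. Pairs of pools within a group differed by far more than counting error (chi-square divided by its degrees of freedom, 33.8 to 114). Replicate 2 of each group had little Xist, the RNA of the inactive X chromosome, and held 5643 (nonmigrated) and 8816 (migrated) counts of 4 Y-linked genes, of which the other pools held 20 to 40. Xist stood at 658, 1.45 and 988 CPM in nonmigrated and 699, 3.56 and 830 CPM in migrated replicates 1 to 3. Replicate 2 of each group was thus mostly male and the others mostly female, with the same balance on both sides.

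Of 16777 genes tested with edgeR's quasi-likelihood F test, 3586 (21.4%) were called, meaning a Benjamini-Hochberg adjusted p under 0.001 and an absolute log2 fold change above 1. Of these, 1476 genes (8.8% of those tested) were higher in migrated cells and 2110 (12.6%) were lower. Changes in the downward direction were the larger ones, with 967 genes lower by more than 3 on the log2 scale and 427 by more than 5, against 465 and 132 genes that were higher by as much. The 3 pools of one group lay wholly above those of the other for 10995 genes (65.5%), and this held for each gene given below unless an overlap is stated. The median log2 fold change of all tested genes was 0.018. With nonmigrated replicate 1 left out the number called higher was 926, and with nonmigrated replicate 2 left out it was 944. The female pools alone gave 478 genes called higher and 999 called lower. All of these genes moved in the same direction in the male pair, which that fit had not used, and 456 and 987 of them differed there by more than 1 on the log2 scale of CPM + 0.1.

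**Figure D1:**
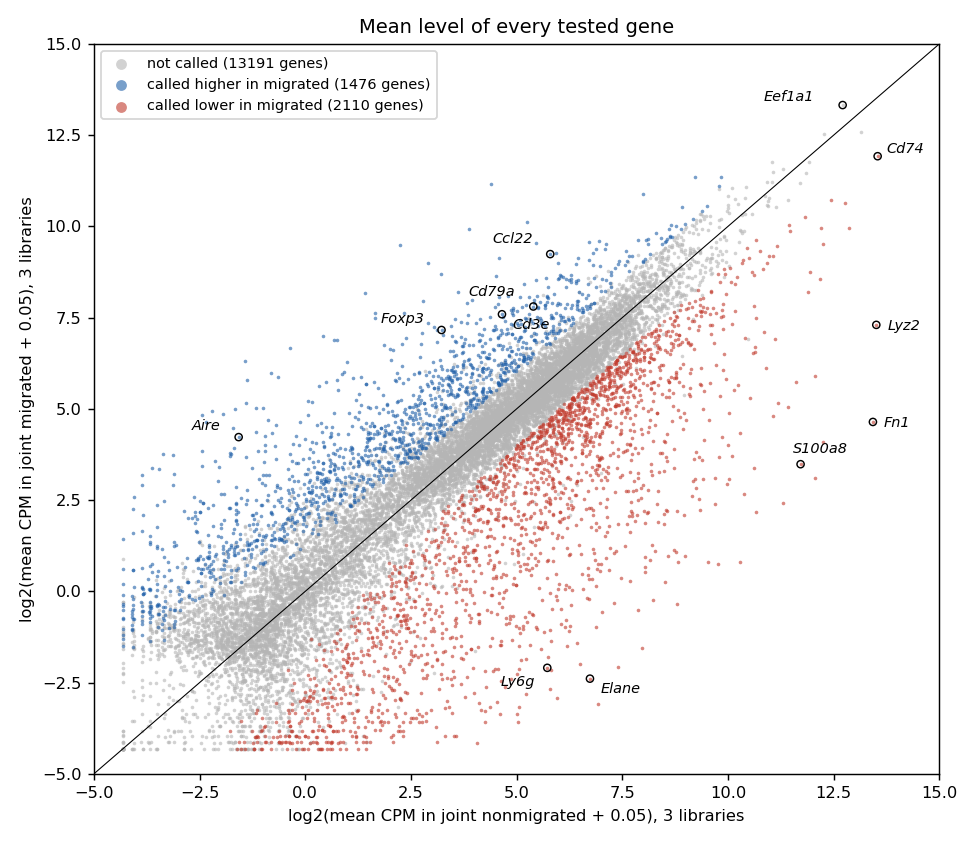
Mean level of each of the 16777 tested genes, as log2(CPM + 0.05), in joint nonmigrated pools (x axis, 3 libraries) and joint migrated pools (y axis, 3 libraries). Blue points are the 1476 genes called higher in migrated cells, red points the 2110 called lower and grey points the rest, the line marks equal levels, and 12 genes of the text are circled.

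Granulocyte transcripts were far lower in migrated cells than in the joint. Genes of the neutrophil precursors of bone marrow were called lower in 12 of 12 cases, with a median log2 fold change of -8.77. Most of them encode granule proteins, but the list also holds the transcription factor gene Cebpe. Markers of mature neutrophils were called lower in 16 of 17 cases, with a median of -6.92. Elane, the gene of neutrophil elastase, stood at 29.1, 151 and 140 CPM in the nonmigrated pools and 0.0391, 0.178 and 0.204 CPM in the migrated pools (log2 fold change -9.55 ± 0.80 (SE), adjusted p = 8.33e-06). Mpo, the myeloperoxidase that makes hypochlorous acid, stood at 135, 637 and 556 against 0.176, 0.689 and 1.33 CPM (log2 fold change -9.24 ± 0.82, adjusted p = 3.97e-06). Camp, the cathelicidin peptide of the secondary granules, fell from 436, 866 and 1301 to 1.64, 1.62 and 1.61 CPM (log2 fold change -9.06 ± 0.56, adjusted p = 4.13e-07). In all 3 genes the highest migrated pool was far below the lowest nonmigrated pool, which for Elane and Mpo was replicate 1. In nonmigrated skin pools the means of Elane, Mpo and Camp were only 0.0187, 0.301 and 0.65 CPM. The precursor gene Cebpe was at 7.81 CPM there, and the mature neutrophil genes Csf3r and S100a8 were at 494 and 565 CPM. Which cells of the joint preparation carried the precursor RNA was not tested.

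The precursor genes are shown with the bases before their start sites because the median change of this list was the lowest of all the lists examined. Windows of 250 bases before the annotated start, taken from RefSeq on GRCm38.p6, were found for 11 of the 12 precursor genes and searched on both strands for a C/EBP motif (TTGCNNAA), a PU.1 motif (GAGGAAGT), a RUNX motif (TGTGGTTT) and a TCF/LEF motif (CTTTGATC), the binding sequences of factors known from myeloid or lymphoid genes. The C/EBP letters were in 4 of the 11 windows (36.4%, against 9.56% of all 32851 mouse windows of this length) and the PU.1 letters in 3 (27.3% against 2.44%), and none held the other motifs. Those 7 windows follow, 5′ to 3′ on the strand of the gene, with the motif letters in capitals on whichever strand they were found. They end 1 base before the start site of Elane (chr10:79886062-79886311, plus strand), Mpo (chr11:87793534-87793783, plus), Prtn3 (chr10:79879417-79879666, plus), Ltf (chr9:111019042-111019291, plus), Ngp (chr9:110419558-110419807, plus), Lcn2 (chr2:32387740-32387989, minus) and Fcnb (chr2:28084879-28085128, minus).
Elane: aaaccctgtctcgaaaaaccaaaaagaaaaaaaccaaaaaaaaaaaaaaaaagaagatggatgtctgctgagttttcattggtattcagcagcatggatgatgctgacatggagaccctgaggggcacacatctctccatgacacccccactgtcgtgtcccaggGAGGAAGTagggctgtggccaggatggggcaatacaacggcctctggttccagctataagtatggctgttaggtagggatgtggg
Mpo: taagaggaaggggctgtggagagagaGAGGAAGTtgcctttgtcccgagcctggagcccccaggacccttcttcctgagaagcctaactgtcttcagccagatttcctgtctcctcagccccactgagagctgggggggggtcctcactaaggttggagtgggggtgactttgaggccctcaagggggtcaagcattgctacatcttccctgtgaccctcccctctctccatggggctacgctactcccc
Prtn3: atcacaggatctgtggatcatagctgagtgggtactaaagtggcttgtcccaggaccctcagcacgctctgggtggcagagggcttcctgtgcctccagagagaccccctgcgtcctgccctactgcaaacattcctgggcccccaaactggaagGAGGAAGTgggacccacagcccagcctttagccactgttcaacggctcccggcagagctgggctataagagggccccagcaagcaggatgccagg
Ltf: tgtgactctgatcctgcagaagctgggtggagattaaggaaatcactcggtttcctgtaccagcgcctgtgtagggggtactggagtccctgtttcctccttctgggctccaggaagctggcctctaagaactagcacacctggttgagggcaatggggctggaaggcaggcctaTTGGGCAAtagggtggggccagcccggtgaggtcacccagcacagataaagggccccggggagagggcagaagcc
Ngp: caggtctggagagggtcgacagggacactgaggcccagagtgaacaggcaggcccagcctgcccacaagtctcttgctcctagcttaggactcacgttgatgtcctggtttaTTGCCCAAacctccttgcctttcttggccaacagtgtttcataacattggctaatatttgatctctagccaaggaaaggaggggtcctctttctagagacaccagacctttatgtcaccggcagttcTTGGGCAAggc
Lcn2: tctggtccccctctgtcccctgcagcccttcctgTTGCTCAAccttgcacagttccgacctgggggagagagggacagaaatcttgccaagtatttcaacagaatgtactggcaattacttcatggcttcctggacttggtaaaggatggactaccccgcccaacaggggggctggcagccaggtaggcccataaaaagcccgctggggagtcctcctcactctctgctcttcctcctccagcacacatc
Fcnb: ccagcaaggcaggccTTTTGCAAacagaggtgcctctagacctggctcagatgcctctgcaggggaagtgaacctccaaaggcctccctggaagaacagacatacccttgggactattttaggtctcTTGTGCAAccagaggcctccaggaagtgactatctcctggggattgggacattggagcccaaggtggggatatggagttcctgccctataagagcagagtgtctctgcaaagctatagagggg
The capitals are PU.1 letters in Elane, Mpo and Prtn3, which encode granule proteins of the primary kind, and C/EBP letters in Ltf, Ngp, Lcn2 and Fcnb. In the 17 windows of 16 mature neutrophil genes the shares were 29.4% for C/EBP and 23.5% for PU.1. In the same order the shares were 4.76% and 14.3% in 21 windows of monocyte and macrophage genes. They were 15.0% and 5.0% in 20 windows of T cell genes, and 12.5% and 12.5% in 16 windows of B cell genes. Over the windows of all genes called lower they were 9.93% and 3.77%, and over those of genes called higher 7.57% and 3.28%. A match of letters is a description of the window only, and the difference between these shares was not tested.

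Among mature neutrophil genes, S100a8, a chain of the calprotectin complex, was at 1753, 3039 and 5319 CPM in nonmigrated and 9.57, 6.31 and 17.6 CPM in migrated cells (log2 fold change -8.24 ± 0.74, adjusted p = 4.46e-06). Its partner S100a9 was at 2349, 4632 and 7636 against 13.7, 10.3 and 26.5 CPM (log2 fold change -8.18 ± 0.66, adjusted p = 2.05e-06). Ly6g, the surface antigen by which mouse neutrophils are recognised, was at 22.9, 50.1 and 85.6 against 0.235, 0.133 and 0.184 CPM (log2 fold change -8.13 ± 0.61, adjusted p = 1.27e-06), a gene added to those named by rule after its values were seen. Csf3r, the receptor for granulocyte colony-stimulating factor, was at 312, 400 and 551 against 5.14, 11.8 and 27.96 CPM (log2 fold change -4.81 ± 0.54, adjusted p = 1.88e-05). Il1r2, a decoy receptor for interleukin 1, was the member not called. The nonmigrated pools differed among themselves, with summed levels of 6719, 11426 and 18881 CPM for the mature list and 5029, 10376 and 16865 CPM for the precursor list in replicates 1 to 3. Replicate 3 was highest and replicate 1 lowest for both. In migrated pools the sums were 58.4, 66.3 and 159 CPM and 24.5, 24.5 and 36.5 CPM.

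Monocyte and macrophage markers were likewise lower in migrated cells, in 20 of 22 cases, with a median log2 fold change of -6.48. Their summed level was 26579, 31581 and 25230 CPM in the nonmigrated pools, which is 2.66%, 3.16% and 2.52% of normalised counts, and 492, 693 and 606 CPM in the migrated pools. Lyz2, the lysozyme of myeloid cells, stood at 10390, 13210 and 11430 against 86.8, 184 and 203 CPM (log2 fold change -6.21 ± 0.66, adjusted p = 1.36e-05). Csf1r, the receptor through which macrophages receive their survival signal, stood at 2552, 2565 and 1859 against 19.5, 40.9 and 47.7 CPM (log2 fold change -6.01 ± 0.45, adjusted p = 1.35e-06). Mrc1, the mannose receptor CD206, stood at 720, 961 and 791 against 1.15, 6.15 and 8.19 CPM (log2 fold change -7.32 ± 0.84, adjusted p = 2.35e-05), and C1qa, a subunit of complement C1q made by tissue macrophages, at 998, 1269 and 745 against 3.71, 8.82 and 10.2 CPM (log2 fold change -7.05 ± 0.84, adjusted p = 3.08e-05). Each migrated pool lay far below each nonmigrated pool in these genes, and migrated replicate 1 was the lowest. Vsig4 and Lyve1, which mark macrophages that line the joint or sit along vessels, were also lower. Vsig4 was at 42.1, 42.1 and 14.4 CPM in the joint and at 0.0391, 0.0222 and 0.0409 CPM, 1 or 2 counts a library, in the node. Lyve1 was at 77.1, 62.2 and 30.6 against 0.0586, 0.222 and 0.245 CPM (log2 fold change -8.32 ± 1.05, adjusted p = 4.59e-05). The members not called were Ly6c2 and Timd4.

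**Figure D2:**
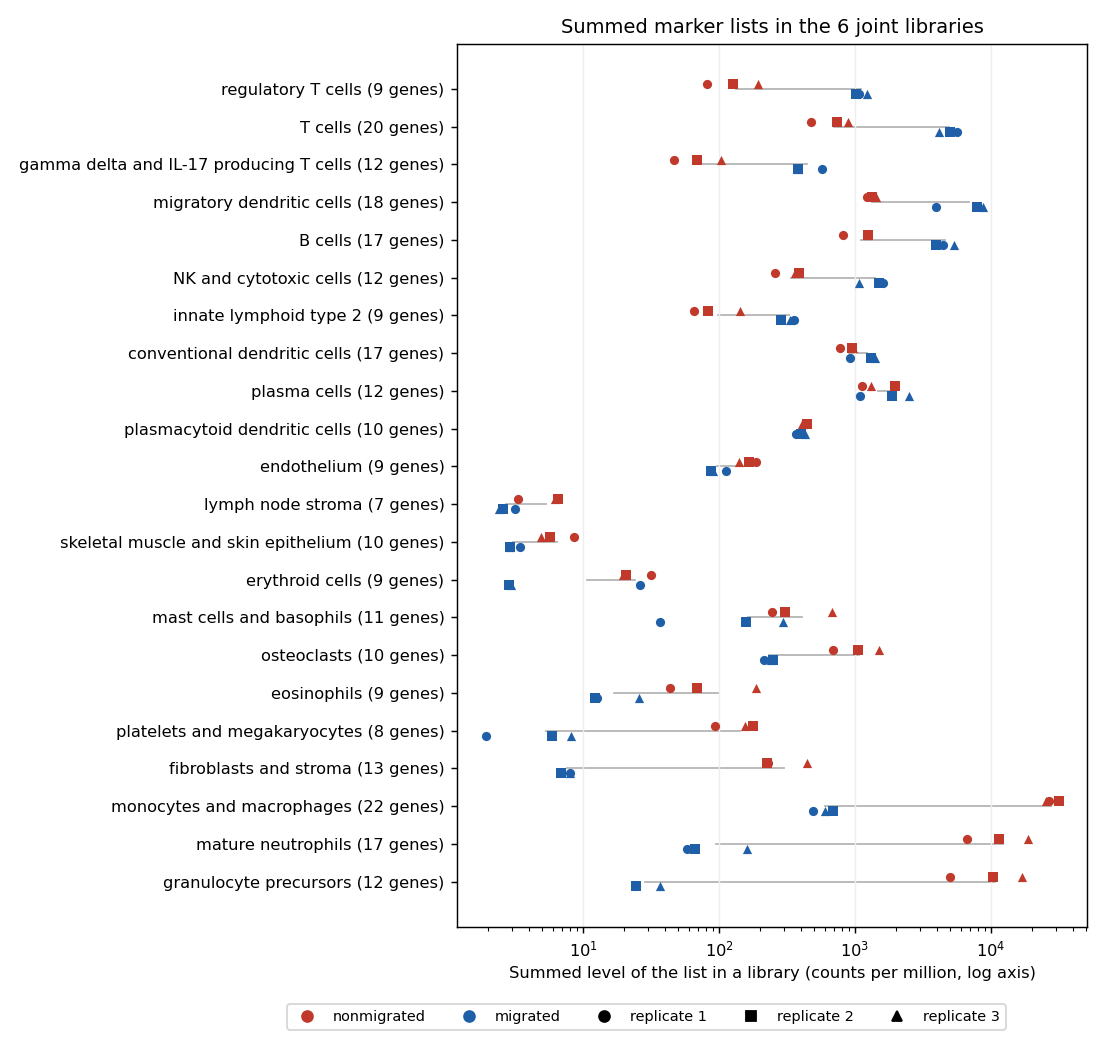
Summed level in CPM (x axis, log scale) of 22 lists of cell type markers (y axis, ordered by the ratio of group means) in each of the 3 nonmigrated (red) and 3 migrated (blue) libraries, with the replicate number by marker shape and a grey line between the group means. The migrated sums of mature neutrophil markers lie between 58.4 and 159 CPM and those of T cell markers between 4153 and 5654 CPM, while plasmacytoid dendritic cell sums overlap between the groups.

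Bone-resorbing osteoclasts share ancestry with macrophages, and 5 of 8 tested osteoclast markers were called lower. Mmp9, 1 of these 5, also stands on the lists of mature neutrophil markers and of matrix proteases. Acp5, Itgb3 and Tnfrsf11a were not called, and Calcr and Oscar were not among the genes tested. Ctsk, the collagen-degrading cathepsin K, was at 24.9, 44.3 and 42.3 against 0.195, 0.1999 and 0.286 CPM (log2 fold change -7.33 ± 0.63, adjusted p = 3.17e-06). Acp5, the tartrate-resistant acid phosphatase often used to stain osteoclasts, was at 56.8, 77.6 and 92.9 against 90.97, 86.4 and 69.1 CPM and the groups overlapped.

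T cell genes lay in the opposite direction. Of 20 T cell markers, 19 were called higher in migrated cells and none lower, with a median log2 fold change of 2.90. Leaving out 1 library at a time gave 14 to 18 calls. Cd3e, a chain of the T cell receptor complex, was at 15.8, 26.9 and 32.7 CPM in nonmigrated pools and 231, 196 and 152 CPM in migrated pools (log2 fold change 2.94 ± 0.36, adjusted p = 4e-05). Cd8a, the coreceptor of cytotoxic T cells, was at 6.83, 13.7 and 14.3 against 189, 212 and 124 CPM (log2 fold change 3.92 ± 0.40, adjusted p = 9.89e-06), and Cd4, the coreceptor of helper T cells, was at 54.2, 88.1 and 110 against 381, 341 and 358 CPM (log2 fold change 2.10 ± 0.32, adjusted p = 0.000181). Both coreceptors were higher without overlap between pools, and the call of Cd4 was lost without nonmigrated replicate 2. Tcf7, the transcription factor TCF-1 of naive and memory T cells, was at 30.7, 52.1 and 49.4 against 847, 783 and 594 CPM (log2 fold change 4.07 ± 0.36, adjusted p = 4.09e-06), the largest change on the list.

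Genes of regulatory T cells rose in 8 of 9 cases, with a median of 2.98. By flow cytometry the study found comparable proportions of regulatory T cells, dendritic cells and nonconventional T cells among red cells of joint and node. Other T cells and B cells were proportionally more in the node there, and neutrophils and monocytes in the joint. How these cell proportions bear on the RNA levels was not tested. Foxp3, their lineage factor, was at 6.47, 11.2 and 10.2 CPM in the joint and 159, 142 and 129 CPM in the node (log2 fold change 3.95 ± 0.34, adjusted p = 3.30e-06). It lies on the X chromosome and overlaps several genes, among them Flicr on the same strand, whose reads cannot be told apart from it here. Izumo1r, the folate receptor 4 found on regulatory T cells, was at 1.61, 2.28 and 3.26 against 47.03, 42.6 and 38.1 CPM (log2 fold change 4.16 ± 0.32, adjusted p = 1.60e-06). Ctla4, the inhibitory receptor, was at 26.1, 43.1 and 78.2 against 274, 211 and 356 CPM, which passed in size but not in adjusted p (adjusted p = 0.00178).

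Of 12 genes of gamma delta and IL-17 producing T cells, 9 were called higher and none lower. Trdc, the constant region of the delta chain, was at 9.15, 13.8 and 16.8 against 151, 90.9 and 74.7 CPM (log2 fold change 2.995 ± 0.42, adjusted p = 0.000104). The cytokine gene Il17a was at 1.95, 4.46 and 9.33 against 15.2, 12.1 and 21.7 CPM and was not called (adjusted p = 0.0466), and neither were Il17f and Zbtb16. Leaving out nonmigrated replicate 1 or nonmigrated replicate 2 left 3 calls on this list, and with the female pools alone edgeR called 0 of 12, of which 11 were higher at an unadjusted p under 0.05. Of 12 genes of NK and cytotoxic cells, 5 were called higher, among them Eomes at 6.497, 10.5 and 10.07 against 109, 87.9 and 45.2 CPM (log2 fold change 3.16 ± 0.48, adjusted p = 0.000193). Without nonmigrated replicate 1 or 2 the number was 1, without nonmigrated replicate 3 or migrated replicate 2 it was 2, and without migrated replicate 1 it was 3. Eomes itself lost its call without each of the nonmigrated replicates. The NK receptor gene Ncr1 was at 5.56, 7.46 and 8.16 against 25.3, 20.1 and 12.2 CPM and was not called (adjusted p = 0.0260). Of 9 genes of type 2 innate lymphoid cells, 4 were higher, including Il9r at 2.99, 2.46 and 2.46 against 51.8, 48.5 and 52.5 CPM (log2 fold change 4.27 ± 0.23, adjusted p = 1.96e-07) and Gata3 at 7.77, 10.6 and 12.02 against 83.9, 68.9 and 48.3 CPM (log2 fold change 2.73 ± 0.38, adjusted p = 0.000105). Il13, the cytokine those cells make, was at 1.59, 1.11 and 2.95 against 1.49, 0.911 and 3.02 CPM and the groups overlapped. Like Il13, the members Areg, Il1rl1, Il5 and Rora were not called. Gata3 also stands on the lists of helper T cell regulators and of lymphoid transcription factors. Which cells carried the RNA of the called genes was not tested.

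B cell genes also rose, with 11 of 17 called higher and a median of 2.59. Summed, they stood at 811, 1248 and 1236 CPM in nonmigrated and 4455, 3920 and 5370 CPM in migrated pools. Ms4a1, which encodes CD20, was at 8.78, 8.37 and 14.9 against 103, 70.8 and 116 CPM (log2 fold change 3.17 ± 0.38, adjusted p = 2.94e-05). The receptors Cr2 and Fcer2a, CD21 and CD23, which are typical of mature follicular B cells, changed most. Cr2 was at 1.48, 1.801 and 2.23 against 65.9, 55.2 and 73.7 CPM (log2 fold change 5.14 ± 0.38, adjusted p = 1.20e-06), and Fcer2a was at 2.47, 4.08 and 5.44 against 115, 85.4 and 101 CPM (log2 fold change 4.65 ± 0.50, adjusted p = 1.38e-05). Pax5, which fixes B cell identity, was at 20.6, 17.5 and 61.6 against 171, 121 and 164 CPM and narrowly missed the threshold (adjusted p = 0.00139). The heavy chain gene Ighm was at 426, 793 and 569 against 2282, 2193 and 3361 CPM (log2 fold change 2.13 ± 0.36, adjusted p = 0.000430), a call that was lost without migrated replicate 2 or 3 and without nonmigrated replicate 1 or 3.

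Of 12 plasma cell genes, Mzb1 and Irf4 were called higher, Sdc1 was called lower and the other 9 were not called, against 8.8% of all tested genes called higher and 12.6% lower. Sdc1, the proteoglycan CD138 that plasma cells share with macrophages and epithelium, was at 118, 110 and 151 against 23.1, 12.7 and 24.3 CPM (log2 fold change -2.66 ± 0.35, adjusted p = 7.14e-05). Jchain, which joins secreted immunoglobulin, was at 95.2, 178 and 102 against 163, 160 and 310 CPM and the groups overlapped. Mzb1 was at 3.98, 5.81 and 7.75 against 26.3, 26.2 and 45.9 CPM (log2 fold change 2.49 ± 0.43, adjusted p = 0.000430). Without nonmigrated replicate 3 only 1 of the upward calls was left, and none was left without nonmigrated replicate 1 or 2 or without migrated replicate 2 or 3.

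Dendritic cell genes divided by kind. Of 17 tested genes of mature migratory dendritic cells, 7 were called higher and none lower, with a median of 1.57. Fscn1, the actin-bundling protein fascin, was at 15.9, 25.7 and 21.5 CPM in nonmigrated and 1108, 2834 and 2965 CPM in migrated pools (log2 fold change 6.78 ± 0.61, adjusted p = 4.49e-06). It spans chr5:142960343-142973185 on GRCm38 and was among the most abundant of the genes that rose. Ccl22, a chemokine that draws regulatory and helper T cells, was at 42.8, 62.2 and 61.4 against 298, 610 and 908 CPM (log2 fold change 3.45 ± 0.51, adjusted p = 0.000160), a call that was lost without any one of the nonmigrated pools. Ccr7, the receptor that guides cells into the node, was at 25.4, 43 and 45.98 against 647, 1100 and 1600 CPM (log2 fold change 4.87 ± 0.56, adjusted p = 2.34e-05). In each of these genes migrated replicate 1 was the lowest of the migrated pools and replicate 3 the highest. Other genes of dendritic cell maturation were not called. Cd83 was at 207, 257 and 323 against 171, 231 and 411 CPM, Cd80 at 24.4, 29.04 and 36.9 against 13.2, 26.95 and 35.5 CPM and Cd274, the ligand PD-L1, at 310, 255 and 266 against 164, 360 and 460 CPM. For all 3 the pools of the groups overlapped.

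Of 17 genes of conventional dendritic cells, 5 were called higher and 4 lower. Flt3, the receptor on which these cells depend, was at 25.7, 33.5 and 23.98 against 145, 329 and 343 CPM (log2 fold change 3.30 ± 0.30, adjusted p = 4.60e-06), and Itgae, the integrin CD103 of one subset and of some T cells, was at 6.96, 13.6 and 11.8 against 195, 134 and 134 CPM (log2 fold change 3.84 ± 0.38, adjusted p = 8.72e-06). The lectins Mgl2 and Clec10a, carried by dendritic cells of the other subset and by macrophages, went down. Mgl2 was at 83.9, 121 and 131 against 3.28, 4.93 and 4.51 CPM (log2 fold change -4.72 ± 0.51, adjusted p = 1.60e-05), and Clec10a was at 57.3, 75.1 and 63.03 against 4.36, 6.58 and 6.496 CPM (log2 fold change -3.49 ± 0.53, adjusted p = 0.000182). Clec9a, a marker of the cross-presenting subset, was at 3.196, 4.61 and 4.46 against 1.88, 4.18 and 5.88 CPM and the groups overlapped. Downward calls on this list numbered 1 without migrated replicate 3 and 2 without migrated replicate 1 or 2, and Clec10a was lost in each of these. Of 10 genes of plasmacytoid dendritic cells, 1 rose and 1 fell, near the 8.8% and 12.6% of all tested genes called in those directions. Pacsin1 was at 3.66, 4.42 and 4.41 against 34.9, 25.95 and 25.1 CPM (log2 fold change 2.78 ± 0.27, adjusted p = 7.66e-06), and Irf7, also an interferon-induced gene of many cells, was at 203, 197 and 149 against 48.04, 47.2 and 41.6 CPM (log2 fold change -2.01 ± 0.19, adjusted p = 5.42e-06). Siglech, the surface marker of these cells, was at 9.69, 11.6 and 11.6 against 16.2, 15.95 and 22.6 CPM and was not called.

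The lists of eosinophil genes and of mast cell and basophil genes each held 1 call, a share near the 12.6% of all tested genes called lower. At an unadjusted p under 0.05 edgeR had 5 of 9 eosinophil genes and 5 of 11 mast cell and basophil genes lower, and none higher. The median log2 fold change of the 9 eosinophil genes was -4.01, and their summed level was 43.7 to 185 CPM in nonmigrated and 12.3 to 25.8 CPM in migrated pools. The gene called lower was Epx, the eosinophil peroxidase, at 2.26, 4.01 and 17.4 against 0.215, 0.244 and 0.123 CPM (log2 fold change -5.32 ± 0.78, adjusted p = 0.000148), and it lost the call without any one of the migrated pools. The 11 mast cell and basophil genes had a median of -1.26, with sums of 247 to 672 CPM in nonmigrated and 37.0 to 294 CPM in migrated pools. Of these genes only Mcpt8, a basophil protease, was called lower, at 4.73, 16.1 and 14.3 against 0.137, 0.511 and 0.449 CPM (log2 fold change -5 ± 0.66, adjusted p = 6.99e-05). Cpa3, a protease of mast cells and basophils, was at 32.8, 38.8 and 83.6 against 2.74, 24.4 and 50.4 CPM, so that migrated replicate 1 stood apart from the other migrated pools and the groups overlapped. Of 6 tested platelet and megakaryocyte genes 3 were called lower. Pf4, the platelet factor 4 of platelet granules that some macrophages also make, was at 85.7, 159 and 134 against 0.274, 1.47 and 2.51 CPM (log2 fold change -6.48 ± 0.88, adjusted p = 8.13e-05). Treml1, which is found in platelet granules, was at 1.72, 1.42 and 1.35 CPM in the joint and at 0 in each migrated library, which puts it at least 24.0-fold lower against a floor of 3 counts per library. Red cell genes were low throughout, with Hba-a1 at 6.16, 4.58 and 4.01 against 5.197, 0.489 and 0.592 CPM and an overlap between the groups. Slc4a1, the anion exchanger of red cells, was the 1 of 7 called lower, at 2.24, 1.01 and 0.801 against 0, 0 and 0.0204 CPM, and the call was lost without migrated replicate 2. For red cell genes too this share was near the 12.6% of all tested genes called lower.

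Transcripts of cells that lack CD45 were also present, mostly in the nonmigrated pools. Of 13 fibroblast and stroma genes 9 were called lower and none higher, and their summed level was 230, 223 and 446 CPM in the joint and 7.99, 6.91 and 8.03 CPM in the node. Dcn, the proteoglycan decorin, was at 23.2, 25.8 and 50.02 against 0.137, 0.222 and 0.184 CPM (log2 fold change -7.49 ± 0.60, adjusted p = 2.09e-06). Of 9 endothelial genes 3 were called lower, Emcn, Flt1 and Lyve1. Lyve1 also stands on the macrophage list, Kdr was at 5.77, 4.99 and 4.18 against 10.7, 7.42 and 6.07 CPM and Cdh5 at 3.59, 3.63 and 4.72 against 1.74, 1.98 and 2.98 CPM. Muscle and skin transcripts were low, with Acta1, the actin of skeletal muscle, the 1 of 7 called lower, at 1.56, 1.36 and 1.29 against 0.0782, 0.0222 and 0.0204 CPM, a call that leaving out any library removed. That share was near the 12.6% of all tested genes called lower. Neither edgeR nor DESeq2 called any of 4 tested genes of lymph node stroma, of which 1 had an unadjusted p under 0.05 in edgeR. Ccl21a, the chemokine of that stroma, was at 0.07796, 0.158 and 0.486 against 0.215, 0.244 and 0.163 CPM, so its RNA was near the floor in both groups, which overlapped.

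**Figure D3:**
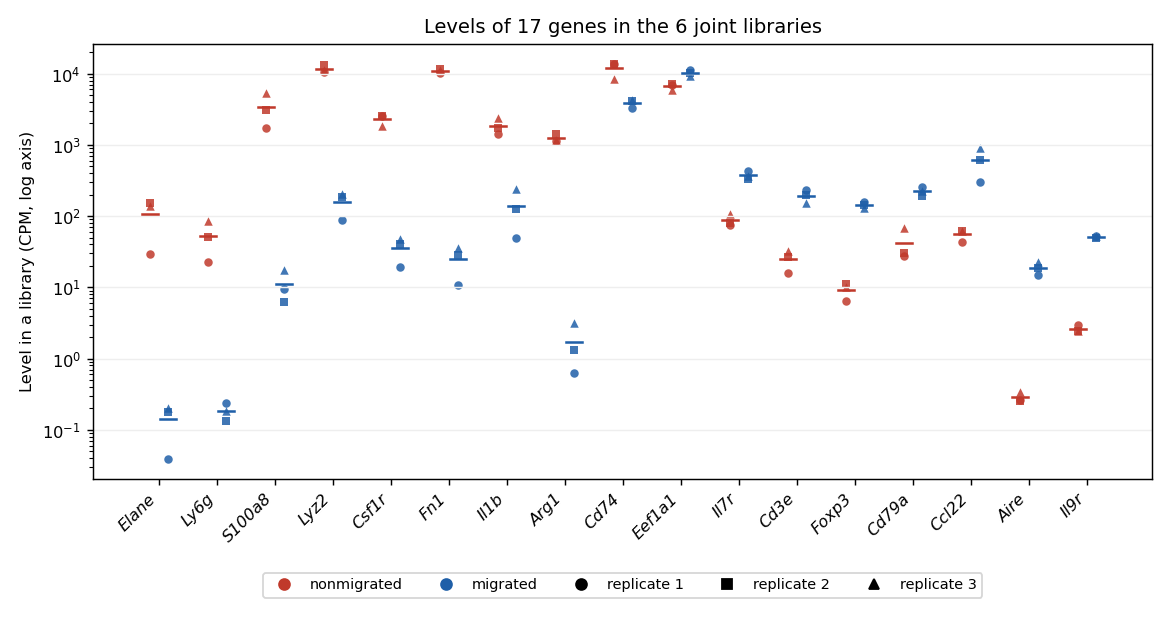
Level in CPM (y axis, log scale) of 17 genes (x axis) in each nonmigrated (red) and migrated (blue) library, with the replicate number by marker shape and the group mean as a bar. In each of the 17 genes the 3 pools of one group lie apart from the 3 of the other, with Elane and Ly6g at the bottom of the migrated range and Eef1a1 at the top.

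Inflammatory functions that macrophages and neutrophils carry were lower in migrated cells across several lists. Of 19 cytokine genes of myeloid cells 12 were called lower and none higher, with a median of -2.08. Il1b was at 1421, 1708 and 2394 CPM in nonmigrated and 49.98, 124 and 242 CPM in migrated pools (log2 fold change -3.73 ± 0.52, adjusted p = 9.77e-05). The other form of interleukin 1, Il1a, was at 49.2, 76.7 and 112 against 0.371, 0.733 and 1.82 CPM (log2 fold change -6.34 ± 0.58, adjusted p = 4.81e-06). Tnf was at 76.5, 111 and 132 against 22.04, 25.5 and 31.99 CPM (log2 fold change -2.01 ± 0.36, adjusted p = 0.000619), a call that only the fit without nonmigrated replicate 1 kept among the 6 that left out a library. Il6 was at 11.6, 13.6 and 20.5 against 1.31, 1.47 and 5.29 CPM and missed the threshold (adjusted p = 0.00869). Of 14 Toll-like receptor and adaptor genes 10 were lower, including Tlr2 at 318, 364 and 443 against 6.72, 12.7 and 15.99 CPM (log2 fold change -4.99 ± 0.32, adjusted p = 4.72e-07) and the coreceptor Cd14 at 1274, 1254 and 1468 against 2.31, 5.399 and 11.3 CPM (log2 fold change -7.72 ± 0.66, adjusted p = 3.06e-06).

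Receptors for antibody changed in both directions. Of 10 Fc receptor genes 5 were called lower, namely the activating receptors Fcgr1, Fcgr3 and Fcgr4, their signalling chain Fcer1g and the inhibitory receptor Fcgr2b, all expressed by myeloid cells, and 4 receptors of B cells, Fcer2a, Fcmr, Fcrl1 and Fcrl5, were called higher. Fcgr3 was at 678, 779 and 598 against 6.92, 8.49 and 9.91 CPM (log2 fold change -6.34 ± 0.20, adjusted p = 1.24e-08), and Fcgr4 at 176, 176 and 125 against 0.332, 0.533 and 1.41 CPM (log2 fold change -7.71 ± 0.51, adjusted p = 6.47e-07). Fcmr, the IgM receptor, was at 5.301, 6.73 and 7.41 against 99.8, 73.5 and 84.2 CPM (log2 fold change 3.73 ± 0.36, adjusted p = 6.61e-06), and Fcrl5 at 0.338, 0.442 and 0.515 against 5.04, 3.51 and 6.66 CPM (log2 fold change 3.55 ± 0.33, adjusted p = 5.36e-06). The 8 chains that carry ITAM signalling motifs also changed in both directions. The chains of the T and B cell receptors, 6 in number, were called higher, and the myeloid chains Fcer1g at 910, 873 and 726 against 65.7, 81.1 and 74.3 CPM (log2 fold change -3.50 ± 0.15, adjusted p = 8.20e-08) and Tyrobp, or DAP12, at 793, 825 and 710 against 98.1, 159 and 143 CPM (log2 fold change -2.54 ± 0.20, adjusted p = 1.93e-06) were called lower. The 6 upward calls became 3 without nonmigrated replicate 2.

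Complement genes were lower in 13 of 17 cases, with a median of -5.94. C3ar1 and C5ar1, the receptors for the fragments C3a and C5a, were at 957, 739 and 507 against 0.449, 1.51 and 3.13 CPM (log2 fold change -8.76 ± 0.79, adjusted p = 4.44e-06) and at 281, 313 and 291 against 0.801, 1.69 and 4.64 CPM (log2 fold change -6.96 ± 0.54, adjusted p = 1.61e-06). The genes that went up were the B cell receptor Cr2, described above, and Cd55, which protects cells from complement, at 15.2, 21.7 and 39 against 115, 85.9 and 95.6 CPM (log2 fold change 1.97 ± 0.31, adjusted p = 0.000239). Cd55 lost its call without nonmigrated replicate 2. Of 12 genes of reactive oxygen and nitrogen production 10 were lower. Cybb, the catalytic subunit of the phagocyte oxidase, was at 1982, 1837 and 1915 against 69.1, 59.9 and 78.8 CPM (log2 fold change -4.79 ± 0.32, adjusted p = 6.82e-07), and Nos2, the inducible nitric oxide synthase, was at 75.2, 163 and 125 against 0.0782, 0.0444 and 0.0817 CPM (log2 fold change -10.70 ± 0.48, adjusted p = 8.20e-08). Of 11 genes of arginine and kynurenine metabolism 5 were lower and 1 higher. Arg1, which uses the same substrate as Nos2, was at 1147, 1401 and 1186 against 0.625, 1.31 and 3.17 CPM (log2 fold change -9.51 ± 0.65, adjusted p = 7.83e-07). Kynu, of the kynurenine pathway of tryptophan, went the other way, at 3.59, 3.95 and 4.72 against 16.9, 21.9 and 24.1 CPM (log2 fold change 2.36 ± 0.23, adjusted p = 7.00e-06). Of 12 genes of eicosanoid synthesis 9 were lower, with Alox5ap, needed to make leukotrienes, at 634, 662 and 519 against 8.23, 14.2 and 19.6 CPM (log2 fold change -5.43 ± 0.40, adjusted p = 1.22e-06) and Tbxas1, the thromboxane synthase, at 235, 212 and 170 against 0.547, 1.16 and 1.82 CPM (log2 fold change -7.45 ± 0.49, adjusted p = 6.00e-07). Ptgs2, or COX-2, was at 311, 375 and 808 against 15.3, 32.8 and 77.9 CPM and just missed the threshold (adjusted p = 0.00105).

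Digestive and clearance functions followed. Lysosomal proteases and hydrolases were called lower in 20 of 21 cases, with a median of -2.71, and their summed level was 31706, 31568 and 24511 CPM in nonmigrated and 3600, 4957 and 5036 CPM in migrated pools. Ctsb, cathepsin B, was at 3910, 4236 and 3245 against 256, 306 and 321 CPM (log2 fold change -3.69 ± 0.27, adjusted p = 1.22e-06). Psap, the precursor of the saposins, was at 8014, 8105 and 6088 against 778, 1118 and 1081 CPM (log2 fold change -2.90 ± 0.27, adjusted p = 4.78e-06). Of 17 tested genes of lipid handling and removal of dead cells 11 were lower. Lpl, the lipoprotein lipase, was at 320, 345 and 430 against 0.8401, 0.9997 and 1.57 CPM (log2 fold change -8.32 ± 0.74, adjusted p = 3.97e-06), and Mertk, a receptor for dying cells, was at 113, 96.8 and 102 against 0.488, 1.64 and 1.82 CPM (log2 fold change -6.30 ± 0.61, adjusted p = 6.62e-06). Its relative Tyro3 was the gene of this list that rose, at 0.494, 0.853 and 0.801 against 7.13, 6.44 and 5.76 CPM (log2 fold change 3.17 ± 0.33, adjusted p = 1.24e-05). Of 13 iron-handling genes 8 were lower, including Hmox1, which breaks down haem, at 289, 352 and 353 against 4.59, 12.7 and 11.4 CPM (log2 fold change -5.12 ± 0.40, adjusted p = 1.82e-06), and Slc11a1, the metal transporter of the phagosome, at 340, 393 and 353 against 1.93, 4.13 and 6.84 CPM (log2 fold change -6.39 ± 0.42, adjusted p = 5.55e-07).

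Matrix genes showed a median log2 fold change of -6.34 over 20 tested genes, of which 16 were called lower. Fn1, the fibronectin gene (chr1:71585520-71653200 on GRCm38), was at 10180, 11810 and 11120 CPM in nonmigrated pools (0.936%, 1.05% and 1.04% of their counts) and at 10.6, 28.3 and 35.9 CPM in migrated pools (log2 fold change -8.79 ± 0.59, adjusted p = 6.94e-07). Spp1, or osteopontin, was at 146, 383 and 628 against 1.78, 1.27 and 2.72 CPM (log2 fold change -7.65 ± 0.54, adjusted p = 9.04e-07). Col1a1 and Col3a1, the collagens of fibroblasts, were at 27.4, 32.4 and 86.4 against 0.625, 0.689 and 1.06 CPM (log2 fold change -5.94 ± 0.58, adjusted p = 7.48e-06) and at 44.8, 49.6 and 123 against 0.0391, 0.667 and 0.204 CPM (log2 fold change -7.93 ± 1.06, adjusted p = 7.32e-05). The collagens were highest in nonmigrated replicate 3, as was the fibroblast list, whereas Fn1 varied little between the nonmigrated pools. How much of the matrix result came from cells other than leukocytes was not tested. Of 19 matrix proteases and inhibitors 15 were lower. Mmp12, the elastase of macrophages, was at 112, 341 and 441 against 0.391, 0.467 and 1.53 CPM (log2 fold change -8.54 ± 0.74, adjusted p = 3.48e-06), and Mmp9 was at 474, 794 and 1235 against 5.099, 6.798 and 13.9 CPM (log2 fold change -6.60 ± 0.54, adjusted p = 2.35e-06). Of 20 glycosaminoglycan genes 10 were lower, among them Cd44, the hyaluronan receptor, at 1827, 1663 and 1196 against 353, 431 and 444 CPM (log2 fold change -1.93 ± 0.17, adjusted p = 3.29e-06).

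Genes of glycolysis and the response to low oxygen were called lower in 18 of 24 cases and higher in 1, with a median of -1.59. Slc16a3, the lactate exporter, was at 325, 383 and 362 against 16.1, 15.6 and 20.8 CPM (log2 fold change -4.35 ± 0.14, adjusted p = 1.39e-08). Bnip3, induced at low oxygen, was at 71.4, 91.6 and 69.4 against 4.94, 5.58 and 4.902 CPM (log2 fold change -3.91 ± 0.17, adjusted p = 8.20e-08), and Vegfa, the vascular growth factor, at 215, 283 and 545 against 7.13, 9.82 and 24.7 CPM (log2 fold change -4.65 ± 0.61, adjusted p = 6.43e-05). Hk3, the hexokinase of myeloid cells, was at 161, 220 and 253 against 3.17, 5.07 and 4.07 CPM (log2 fold change -5.69 ± 0.26, adjusted p = 8.43e-08). Adm, or adrenomedullin, also induced at low oxygen, was the exception, at 0.286, 0.316 and 0.715 against 3.34, 6.07 and 5.82 CPM (log2 fold change 3.52 ± 0.48, adjusted p = 8.81e-05). Ldha was at 785, 851 and 740 against 453, 403 and 415 CPM, a difference that fell just short in size (log2 fold change -0.90 ± 0.13, adjusted p = 9.70e-05). Of 22 genes of oxidative phosphorylation neither edgeR nor DESeq2 called any, while at an unadjusted p under 0.05 edgeR had 1 higher and 9 lower, and the median there was -0.24. Atp5b, of the ATP synthase, was at 574, 614 and 529 against 560, 540 and 540 CPM, so the groups overlapped.

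Of 73 cytosolic ribosomal protein genes 17 were called higher and none lower, with a median of 0.84, and their sum was 29954, 33982 and 28310 CPM in nonmigrated and 64490, 56836 and 48943 CPM in migrated pools. Its count was 7 without migrated replicate 1, 33 without migrated replicate 3 and 11 without nonmigrated replicate 3. Rpsa was at 885, 1015 and 856 against 2738, 2723 and 2433 CPM (log2 fold change 1.52 ± 0.14, adjusted p = 5.39e-06). Ribosomal protein genes have many processed pseudogenes, so their counts are uncertain. Eef1a1, the elongation factor, was at 6984, 7187 and 5989 against 11310, 10120 and 9368 CPM (log2 fold change 0.61 ± 0.14, adjusted p = 0.00260), higher in each migrated pool but not called. Of 17 translation factors Eef1g alone was called higher, at 224, 304 and 267 against 603, 563 and 497 CPM (log2 fold change 1.07 ± 0.13, adjusted p = 3.22e-05), a call lost without nonmigrated replicate 1. Of 27 cell cycle genes only Mcm2 was called, at 28.1, 49.2 and 47.95 against 103, 83.9 and 88.3 CPM (log2 fold change 1.13 ± 0.21, adjusted p = 0.000777), and leaving out any library removed that call. Mki67, a marker of dividing cells, was at 155, 220 and 390 against 443, 350 and 411 CPM and the groups overlapped. The translation factor and cell cycle lists each held a smaller share of upward calls than the 8.8% of all tested genes. Their medians were 0.60 and 0.70, however, below the size that a call required. At an unadjusted p under 0.05 edgeR had 16 of the 17 translation factors and 10 of the 27 cell cycle genes higher, and none lower.

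Interferon-induced genes were taken in 2 lists. Of 20 genes of the type I response 13 were called lower and none higher, with a median of -1.56. Oas2 was at 118, 97.9 and 117 against 6.86, 7.35 and 10.6 CPM (log2 fold change -3.74 ± 0.21, adjusted p = 2.39e-07), yet Isg15 at 22.1, 23.5 and 19.2 against 12.4, 20.6 and 21.1 CPM and Mx1 at 49.5, 45.2 and 35.9 against 41.3, 73.2 and 86.9 CPM overlapped between the groups. Of 17 genes of the response to interferon gamma 2 rose and 2 fell, and the median was -0.05. Those shares were near the 8.8% and 12.6% of all tested genes called higher and lower. Cxcl9 was at 85.8, 93.1 and 75.1 against 2.599, 3.73 and 4.19 CPM (log2 fold change -4.59 ± 0.34, adjusted p = 1.10e-06), whereas Nlrc5, the activator of MHC class I genes, was at 219, 196 and 224 against 443, 689 and 624 CPM (log2 fold change 1.46 ± 0.20, adjusted p = 7.65e-05). Ifng itself was at 9.33, 15.99 and 26.1 against 20.98, 25.4 and 20.7 CPM and overlapped. Without migrated replicate 1 the upward calls on this list numbered 4, and without migrated replicate 2 or 3 the downward calls numbered 1.

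Of 10 genes of antigen presentation by MHC class II 6 were called lower and 3 higher, and Ciita, which switches these genes on, was not called. Cd74, the invariant chain, was at 13780, 13530 and 8480 against 3283, 4161 and 4214 CPM (log2 fold change -1.62 ± 0.27, adjusted p = 0.000362), and the class II chain H2-Aa was at 6392, 6349 and 4030 against 1377, 1839 and 1872 CPM (log2 fold change -1.72 ± 0.24, adjusted p = 0.000116). H2-DMb1, of the peptide exchange factor, was at 484, 518 and 313 against 54.8, 64.1 and 66.2 CPM (log2 fold change -2.83 ± 0.27, adjusted p = 5.68e-06). Its neighbour H2-DMb2 was at 28.1, 35.9 and 26.7 against 166, 144 and 161 CPM (log2 fold change 2.38 ± 0.16, adjusted p = 6.06e-07), and the similar sequences of this pair make the division of reads between them uncertain. H2-Oa and H2-Ob, the inhibitor of peptide exchange best known in B cells, were at 5.04, 8.56 and 5.87 against 57.5, 42.5 and 45.6 CPM (log2 fold change 2.90 ± 0.23, adjusted p = 1.96e-06) and at 11.8, 18.5 and 16.7 against 124, 85.9 and 114 CPM (log2 fold change 2.79 ± 0.27, adjusted p = 7.75e-06). The 6 downward calls became 3 when any one migrated pool was left out, and Cd74 was among those lost. Cd74 also lost its call without nonmigrated replicate 1 or 2.

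Factors that specify lineage changed in both directions. Of 16 myeloid transcription factors 9 were called lower and 1 higher. Cebpe, which directs granule gene expression, was at 18.7, 32.5 and 52.3 against 0.0586, 0.0889 and 0.511 CPM (log2 fold change -7.27 ± 0.81, adjusted p = 1.91e-05), Cebpb at 200, 219 and 215 against 13.7, 11.8 and 15.3 CPM (log2 fold change -3.96 ± 0.27, adjusted p = 8.00e-07) and Spi1, the gene of PU.1, at 456, 439 and 363 against 66.6, 132 and 133 CPM (log2 fold change -1.92 ± 0.26, adjusted p = 8.72e-05). Spic, known from red pulp macrophages and B cells, was the one called higher, at 1.27, 1.52 and 2.32 against 4.59, 15.97 and 25.4 CPM (log2 fold change 3.17 ± 0.53, adjusted p = 0.000353), and kept that call only without migrated replicate 1. Of 19 lymphoid transcription factors 9 were higher and none lower, with Ets1 at 85.7, 138 and 192 against 832, 725 and 653 CPM (log2 fold change 2.41 ± 0.32, adjusted p = 7.56e-05) and Ikzf3, or Aiolos, at 25.8, 35.7 and 56.3 against 303, 263 and 243 CPM (log2 fold change 2.78 ± 0.30, adjusted p = 1.61e-05).

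Genes of resting, recirculating lymphocytes were called higher in 9 of 14 cases and lower in none, with a median of 2.04. Il7r, the receptor for the survival cytokine interleukin 7, was at 75.4, 79.7 and 106 against 424, 330 and 366 CPM (log2 fold change 2.10 ± 0.20, adjusted p = 5.67e-06). Klf2, a factor of quiescent T cells that macrophages and endothelium also express, was at 391, 467 and 500 against 261, 279 and 150 CPM, lower without overlap but not called (log2 fold change -0.98 ± 0.21, adjusted p = 0.00222). Of 12 genes associated with residence in tissue 1 was called higher and 1 lower, near the 8.8% and 12.6% of all tested genes called in those directions. These were Itgae and, called lower, Itga1, the integrin CD49a, at 43.6, 49.8 and 43.1 against 10.2, 12.8 and 10.4 CPM (log2 fold change -2.04 ± 0.21, adjusted p = 1.25e-05). Cd69, often taken as a sign of residence, was at 47.9, 69.6 and 132 against 161, 182 and 139 CPM and was not called (adjusted p = 0.103).

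Genes of follicular help and the germinal centre rose in 5 of 13 cases and fell in 1. Cxcr5, which guides cells into follicles and is also a B cell gene, was at 2.94, 4.04 and 6.295 against 63.1, 55.1 and 70.7 CPM (log2 fold change 3.83 ± 0.36, adjusted p = 6.04e-06). Il21, the cytokine of follicular helper cells, was at 0.624, 0.885 and 2.203 against 9.79, 6.49 and 7.72 CPM (log2 fold change 2.69 ± 0.52, adjusted p = 0.000950), a call that only the fit without nonmigrated replicate 3 kept among those that left out a library. Bcl6, the factor of both follicular helper and germinal centre B cells, was at 89.6, 86.2 and 97.2 against 49.4, 63.9 and 71.5 CPM, lower without reaching the size threshold (log2 fold change -0.56 ± 0.14, adjusted p = 0.00405). S1pr2, which confines B cells to germinal centres, was the gene that fell, at 47.8, 41.7 and 27.8 against 18.6, 18.5 and 17.02 CPM (log2 fold change -1.12 ± 0.18, adjusted p = 0.000307), a call that remained only without nonmigrated replicate 3. Without any one of the migrated pools, or without nonmigrated replicate 1 or 2, 3 genes of this list were called higher. Among 16 helper T cell cytokines and regulators 4 were higher and 1 lower, and leaving out nonmigrated replicate 1 or 2 left 1 call upward. Without migrated replicate 1 or 2 there were 2. Tbx21, or T-bet, the factor of Th1 cells, was at 10.08, 12.6 and 18.7 against 54.4, 51.3 and 35.1 CPM and missed the threshold (adjusted p = 0.00134).

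Integrins were divided, with 5 of 23 higher and 8 lower. Itgam, or CD11b, the integrin of myeloid cells, was at 581, 624 and 584 against 7.17, 7.04 and 11.03 CPM (log2 fold change -6.15 ± 0.28, adjusted p = 8.43e-08), while Itgb7, of lymphocytes that home to the gut, was at 266, 301 and 200 against 643, 514 and 445 CPM (log2 fold change 1.06 ± 0.18, adjusted p = 0.000341), a call lost without migrated replicate 1 or 2 or without nonmigrated replicate 1 or 3. Itga4 was at 568, 405 and 359 against 398, 457 and 544 CPM and overlapped. Upward calls among integrins numbered 2 without migrated replicate 1 or 2 or without nonmigrated replicate 1, and 3 without nonmigrated replicate 2. Of 14 ligands and checkpoint genes 3 were higher and 4 lower. Icosl, the ligand of ICOS, was at 57.7, 55.8 and 45.95 against 217, 283 and 295 CPM (log2 fold change 2.32 ± 0.20, adjusted p = 2.96e-06), Btla, an inhibitory receptor of B and T cells, at 9.75, 13.3 and 17.3 against 106, 88.1 and 140 CPM (log2 fold change 3.05 ± 0.25, adjusted p = 2.56e-06) and Cd276 at 20.3, 22.9 and 13.9 against 1.35, 2.599 and 2.84 CPM (log2 fold change -3.07 ± 0.36, adjusted p = 2.92e-05).

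Immediate early genes and others that respond to tissue dissociation were lower in migrated cells in 10 of 16 cases, with a median of -2.11. Fos was at 3446, 4116 and 4176 against 346, 540 and 401 CPM (log2 fold change -3.19 ± 0.20, adjusted p = 4.72e-07). Ier3 was at 405, 413 and 462 against 5.04, 11.5 and 14.7 CPM (log2 fold change -5.36 ± 0.43, adjusted p = 2.17e-06), and Jun at 359, 606 and 800 against 131, 215 and 162 CPM (log2 fold change -1.80 ± 0.28, adjusted p = 0.000221). Jun lost its call without migrated replicate 1 or 3 or without nonmigrated replicate 2. These genes respond to the handling of tissue, which differed between joint and node as given above, and state and handling cannot be told apart for them.

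**Figure D4:**
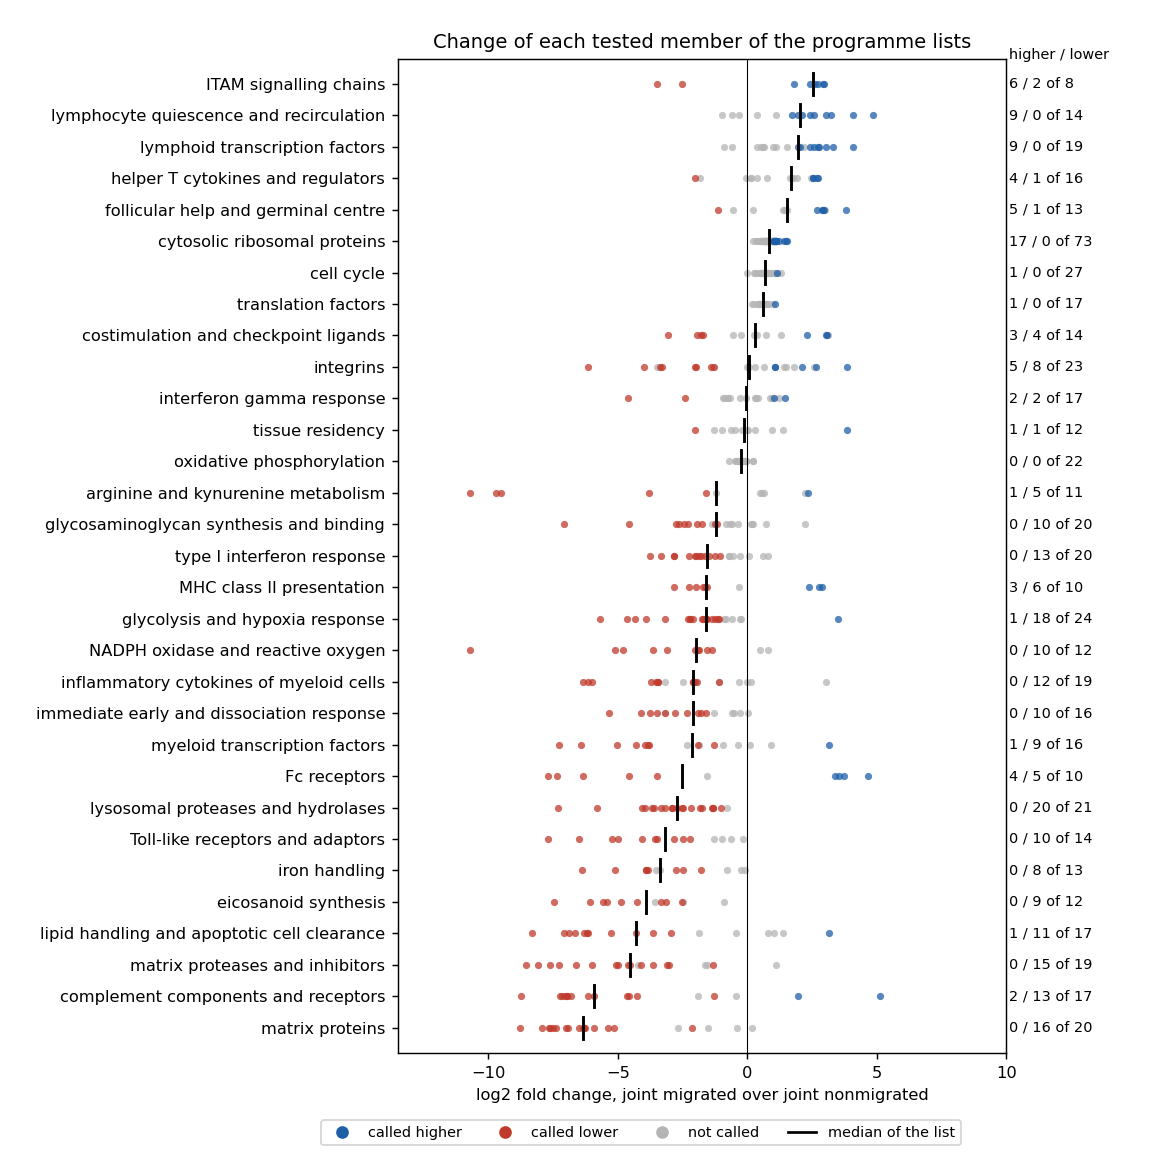
Log2 fold change of each tested member (x axis, migrated over nonmigrated) of 31 programme lists (y axis, ordered by median), with members called higher in blue, called lower in red and others in grey, and the median of the list as a black bar. Numbers at the right give members called higher and lower of those tested. Matrix proteins lie at the bottom with a median of -6.34 and ITAM chains at the top with 2.52.

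The genes with the smallest adjusted p were not mainly the familiar markers. Among the 12 protein-coding genes of this kind that rose, Aire, a transcriptional regulator best known from thymic epithelium, was at 0.2599, 0.253 and 0.343 CPM in nonmigrated and 14.8, 18.6 and 22.6 CPM in migrated pools (log2 fold change 6.01 ± 0.26, adjusted p = 8.20e-08). It spans chr10:78030022-78043610 on GRCm38 and overlaps Dnmt3l on the other strand, and whether the library kit kept the strand was not given in the sources used here, so its count is uncertain. Adam23, a membrane protein of the ADAM family, was at 3.22, 3.002 and 3.03 against 95.4, 196 and 245 CPM (log2 fold change 5.86 ± 0.34, adjusted p = 2.61e-07). H2-M2, a nonclassical MHC class I gene, was at 1.17, 1.33 and 2.403 against 42.5, 52.4 and 70.6 CPM (log2 fold change 5.08 ± 0.28, adjusted p = 2.39e-07). Axin2, a target of Wnt signalling, was at 3.04, 4.42 and 5.44 against 71.9, 50.7 and 44.4 CPM (log2 fold change 3.70 ± 0.23, adjusted p = 4.72e-07), and Ankrd35 was at 0.494, 0.506 and 0.343 against 25.2, 37.6 and 35.1 CPM (log2 fold change 6.18 ± 0.30, adjusted p = 1.14e-07). Cdhr1 was at 0, 0.0632 and 0.0286 CPM in the joint, 0 to 2 counts a library, and at 8.44, 10.4 and 12.2 CPM in the node. Heatr9 was at 1.299, 1.64 and 1.52 against 16.7, 22.8 and 17.6 CPM (log2 fold change 3.68 ± 0.24, adjusted p = 5.37e-07), and Chd3, a chromatin remodeller, at 108, 133 and 137 against 494, 539 and 430 CPM (log2 fold change 1.95 ± 0.13, adjusted p = 5.48e-07). The other genes of the 12 were Il9r, given above, S1pr1, and the unnamed loci 1500009L16Rik and 2610528A11Rik. S1pr1 was at 33.4, 35.1 and 40.1 against 422, 309 and 298 CPM.

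On the side of the joint, Prdx5, a peroxiredoxin that removes peroxides, had the smallest adjusted p of the 12 leading genes, at 543, 547 and 523 against 42.5, 45.3 and 40.2 CPM (log2 fold change -3.66 ± 0.11, adjusted p = 7.97e-09). It overlaps Trmt112 on the other strand. Adssl1, of purine synthesis, was at 117, 139 and 122 against 4.63, 5.58 and 5.801 CPM (log2 fold change -4.56 ± 0.17, adjusted p = 3.91e-08), and Gsn, the actin-severing gelsolin, at 553, 579 and 511 against 45.01, 43.3 and 53.99 CPM (log2 fold change -3.53 ± 0.15, adjusted p = 8.20e-08). Slc15a3, a peptide transporter of the endosome, was at 295, 298 and 339 against 21.7, 19.8 and 29.6 CPM (log2 fold change -3.71 ± 0.16, adjusted p = 8.20e-08), and Ly6i, of the Ly6 family of monocytes, at 68.2, 64.9 and 50.2 against 1.41, 1.07 and 1.55 CPM (log2 fold change -5.50 ± 0.23, adjusted p = 8.20e-08). Ccr1, a receptor for inflammatory chemokines, was at 325, 347 and 307 against 5.18, 5.799 and 9.13 CPM. Tbkbp1, Fcgr3, Fcer1g, Slc16a3, Bnip3 and Nos2 completed the 12.

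The most abundant transcripts also differed. The 10 leading genes held 7.58%, 7.79% and 6.58% of assigned counts in nonmigrated replicates 1 to 3, and those of migrated cells, with Cd74, mt-Co1, Eef1a1 and Actb in both lists, held 5.13%, 5.02% and 5.02%. In the joint they were led by Cd74, Lyz2 and Fn1, with mean shares of 1.09%, 1.07% and 1.01%. In the node Eef1a1 led with a mean share of 1.17%, and Lyz2 and Fn1 held 0.0178% and 0.0028%. Beside Fscn1, Ighm and Rpsa, the called genes that rose to the highest levels were Lsp1, a leukocyte actin-binding protein, and Tmem123. Lsp1 was at 873, 1008 and 757 against 1612, 2561 and 2467 CPM (log2 fold change 1.33 ± 0.21, adjusted p = 0.000260), and Tmem123 at 255, 248 and 263 against 1159, 2123 and 2454 CPM (log2 fold change 2.91 ± 0.29, adjusted p = 7.68e-06). Lsp1 lost its call without migrated replicate 2 or 3 or without nonmigrated replicate 1 or 3.

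The change with migration in the joint was set against that in skin, whose pools came from mice challenged in the ear pinna instead of the footpad and held 8003 to 11832 counts of Xist and 8 to 15 of Y-linked genes. By a test of the interaction in the same edgeR fit, 20 genes (0.119% of those tested) were called as changing differently. Among the 206 genes named by rule these were Il7r and Fth1. Il7r was higher in migrated cells of the joint by 2.10 ± 0.20 (log2, SE), whereas in skin its change was -0.61 ± 0.19, from a mean of 563 CPM in nonmigrated to 370 CPM in migrated pools. Fth1, the heavy chain of the iron store ferritin, was at 4617, 5126 and 4971 against 681, 714 and 808 CPM in the joint (log2 fold change -2.74 ± 0.18, adjusted p = 5.23e-07), and its change in skin was -4.92 ± 0.20. With the female pools alone edgeR called none of 16615 genes, of which 2820 had an unadjusted p under 0.05.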

How the data were processed

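RNA from viable CD45+ Kaede red cells was sequenced as paired reads. According to the study's methods, the authors trimmed the reads with Trim-Galore!, aligned them to mm10 with TopHat2 and Ensembl 87 annotation, and counted reads per gene with HTSeq under default settings. The deposited values are raw counts for 49585 genes, and 5 summary lines were removed. HTSeq by default counts reads on the strand of the gene, and whether the library kit kept the strand was not given in the sources used here, so counts of overlapping genes are uncertain. Coordinates came from GENCODE M21 on GRCm38, and promoter windows from RefSeq on GRCm38.p6.

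The 12 inflamed joint and skin libraries were fitted together in edgeR 4.0.16 (R 4.3.3, limma 3.58.1), with group as the only term, TMM normalisation and a filterByExpr minimum count of 10, and tested by the quasi-likelihood F test with Benjamini-Hochberg adjustment. Standard errors were derived from the log2 fold changes and F. A call required adjusted p under 0.001 and a log2 change beyond 1 in either direction. The p-values measure the spread between pools. The study's methods state no pairing, so replicate numbers were not taken to pair the pools and no block was used. Whether same-numbered pools came from the same mice was not given in the sources used here.

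Members and lists were chosen with earlier results of these data known. Genes were named by rule, which took the 12 protein-coding genes a direction with the smallest adjusted p and no overlap, the 10 with the largest count share a group, the anchors of each of 54 lists, the called member of each list that changed most in each direction, up to 3 called members against the direction of a list, and the 5 called genes a direction with the highest level. Ly6g was added after its values were seen, and some genes that the rule took are not reported here. The script was tested on simulated data. Alternatives were DESeq2 1.42.0, other filters and samples, a replicate block, leaving out each joint pool in turn and, chosen after seeing the data, the female pools alone and pool sex as a term.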

Additional observations from a re-analysis of the deposited data

Results flagged for a closer look

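For 2 named genes the change with migration differed between joint and skin by the test of the interaction in edgeR. The change of Il7r, the interleukin 7 receptor, was larger in the joint by 2.709 on the log2 scale (SE 0.273, adjusted p = 0.000667). It rose in the joint and stood at 563 CPM in nonmigrated against 370 CPM in migrated skin pools. The change of Fth1, the ferritin heavy chain, was less negative in the joint by 2.179 (SE 0.237, adjusted p = 0.000982), since it went from 23340 to 772 CPM in skin. Under every alternative run the differences were 2.613 to 2.872 for Il7r and 2.135 to 2.253 for Fth1. Their adjusted p nevertheless rose above 0.001 for Fth1 whenever a joint pool was left out, and for Il7r whenever one other than nonmigrated replicate 3 was left out. A replicate block within each site gave 0.00431 for Fth1 and 0.00212 for Il7r, and pool sex as a term gave 0.00249 and 0.0018. For Fth1 alone it also rose above 0.001 with DESeq2 size factors (0.00111) and with protein-coding genes only (0.0013). With the female pools alone the adjusted p was 0.0101 for Il7r and 0.012 for Fth1. The skin pools were female, and all other differences between the sites were not tested.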

How the results depend on the processing

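No called result changed direction under any alternative run. Leaving out each joint pool in turn gave 926 to 1273 genes called higher, 1489 to 1882 called lower, and 7 to 13 called as differing between joint and skin. The female pools alone gave 478 higher, 999 lower and 0 by interaction (2820 at an unadjusted p under 0.05), in a fit with fewer samples, and pool sex as a term gave 8 by interaction. In that fit of the female pools 5 T cell, 3 regulatory T cell, 6 B cell, 14 neutrophil, 10 precursor and 14 macrophage genes were called. On the gamma delta and NK lists edgeR then called 0 of 12 each, with 11 and 10 higher at an unadjusted p under 0.05. Raising the adjusted p threshold to 0.05 gave 2678 higher and 1029 by interaction, against 20 as reported. The interaction count was 661 by the DESeq2 Wald test, 290 without the filter on low counts and 9 with protein-coding genes only, and the cause was not tested. DESeq2 called 4694 genes for migration in the joint against 3586 by edgeR.

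Same-numbered pools deviated from their group means together with correlations of 0.0097, 0.193 and 0.188, and other pairs with -0.203 to 0.0785. These were not all high, so the numbers were not taken to pair the pools. Replicate 2 was mostly male in both groups, however, and whether same-numbered pools shared mice remains unknown. Migrated replicate 1 correlated best with nonmigrated replicate 2. A replicate block within each site gave 2826 calls, 2730 of them shared with the fit reported, and 1 by interaction. With only the 6 joint pools and a replicate block 618 genes were called higher and 1427 lower, so that 30.2% of calls were higher against 41.2% as reported. The block within each site left 17 T cell, 12 B cell and 3 NK genes called higher, and with the joint pools only it left 10, 7 and 2. In both block fits edgeR called 0 of the 12 gamma delta genes, all 12 of which were higher at an unadjusted p under 0.05, and the DESeq2 Wald test without the block called 10. Depth limits genes near the floor of 3 counts, where fold changes depend on few reads.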
